A study of Danio rerio with 25 samples.

Results

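The pigment cell and melanin synthesis genes followed here were 7 of the 32520 Ensembl genes in the count tables, chosen by gene identifier: sox10 (ENSDARG00000077467), mitfa (ENSDARG00000003732), tyr (ENSDARG00000039077), dct (ENSDARG00000006008), tyrp1b (ENSDARG00000056151), pmelb (ENSDARG00000033760) and slc24a5 (ENSDARG00000024771). The identifier called pmelb here was listed under the name pmela when the genes were chosen, whereas the gene name table pairs it with pmelb and pairs pmela with ENSDARG00000091298. The pmela row was therefore followed beside the 7 genes. All 7 passed the filter on low counts in both experiments.

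Melanophores, the black pigment cells of zebrafish, come from the neural crest, and sox10 and mitfa encode the transcription factors that specify them. Inside their melanosomes tyrosinase and its relatives Dct and Tyrp1 make melanin on fibrils of the Pmel protein, and the exchanger Slc24a5 supports that process. The retinal pigment epithelium makes melanin with the same enzymes, and glia of the nervous system also use sox10, so whole larvae mix several sources of these transcripts.

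In the DEX course, whole Tg(Ola.Sp7:nlsGFP) larvae were kept in 10 µM DEX, a synthetic glucocorticoid, and 3 libraries a day were sequenced over 5 days (D3, D4, D5, D6 and D7). According to the methods a day is counted from fertilization, and according to the labels from when DEX was added. The methods give exposure from day 3 to day 7, so by them D3 was the first day of exposure. Vehicle-treated larvae were not analysed here, so development and exposure cannot be told apart in a difference between days. In the other experiment, 5 libraries came from cdkn1a crispants, which are mosaic larvae injected as embryos with Cas9 protein and a pool of sgRNAs against cdkn1a, and 5 libraries came from WT larvae. All 5 crispant titles name cdkn1a, whereas the treatment labels of these samples run from sgCdkn1a to sgCdkn5a, 1 name a sample, and the titles and methods were followed. The day of the crispant and WT libraries is not given in their labels. The methods name days 3 to 7 after fertilization for DEX, WT and crispant samples together, without the day of each library. Whether the crispant and WT libraries differ in age is therefore not known. Whether a pigment blocker was used, and how many larvae went into a library, are not given in the sources used here.

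DEX libraries held 13685297 to 21812411 counts, and crispant and WT libraries 30330699 to 38467088. Within a day the DEX libraries are lettered a, b and c. Over all genes, deviations from the day mean were shared by the D7 and D3 libraries of a letter (mean r = 0.406 across genes, 3 pairs). The crispant experiment was divided into 2 sets of libraries. They were read from repeated header names and from the first principal component over all genes, which held 38.2% of the variance. The first set held 3 crispant and 3 WT libraries, and the second 2 of each. The targeted gene cdkn1a had 8.58, 10.1 and 8.34 CPM (counts scaled to the library total) in first-set crispants, against 17.9, 17.6 and 21.9 CPM in first-set WT libraries. In the second set it had 1.66 and 1.67 CPM in crispants, against 3.63 and 4.58 CPM in WT libraries. It was lower in crispants within both sets (log2 fold change −1.08, adjusted p = 6.48e-06, and −1.30, adjusted p = 0.000278), whereas over all 10 libraries it did not pass the test (adjusted p = 0.529).

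All 7 genes had a log2 fold change below 0 on D7 against D3, with a median of −1.90 against 0.06 over all genes tested. By edgeR (quasi-likelihood, p adjusted by Benjamini-Hochberg), 3 of the 7 fell (sox10, dct and pmelb), where 25.3% of all genes tested were called and 13.5% were called lower. With the letter as a replicate block, 6 of the 7 fell, all but slc24a5. There 36.5% of all genes were called, and 4106 of 21750 were called lower. The D7 libraries lay below every D3 library in 5 of the 7 genes, all but sox10 and tyr, as they did in 21.9% of all genes. CPM are relative to the whole library. In bulk libraries of whole larvae, fewer pigment cells, less RNA per cell and more RNA from other cells cannot be told apart.

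**Figure D1:**
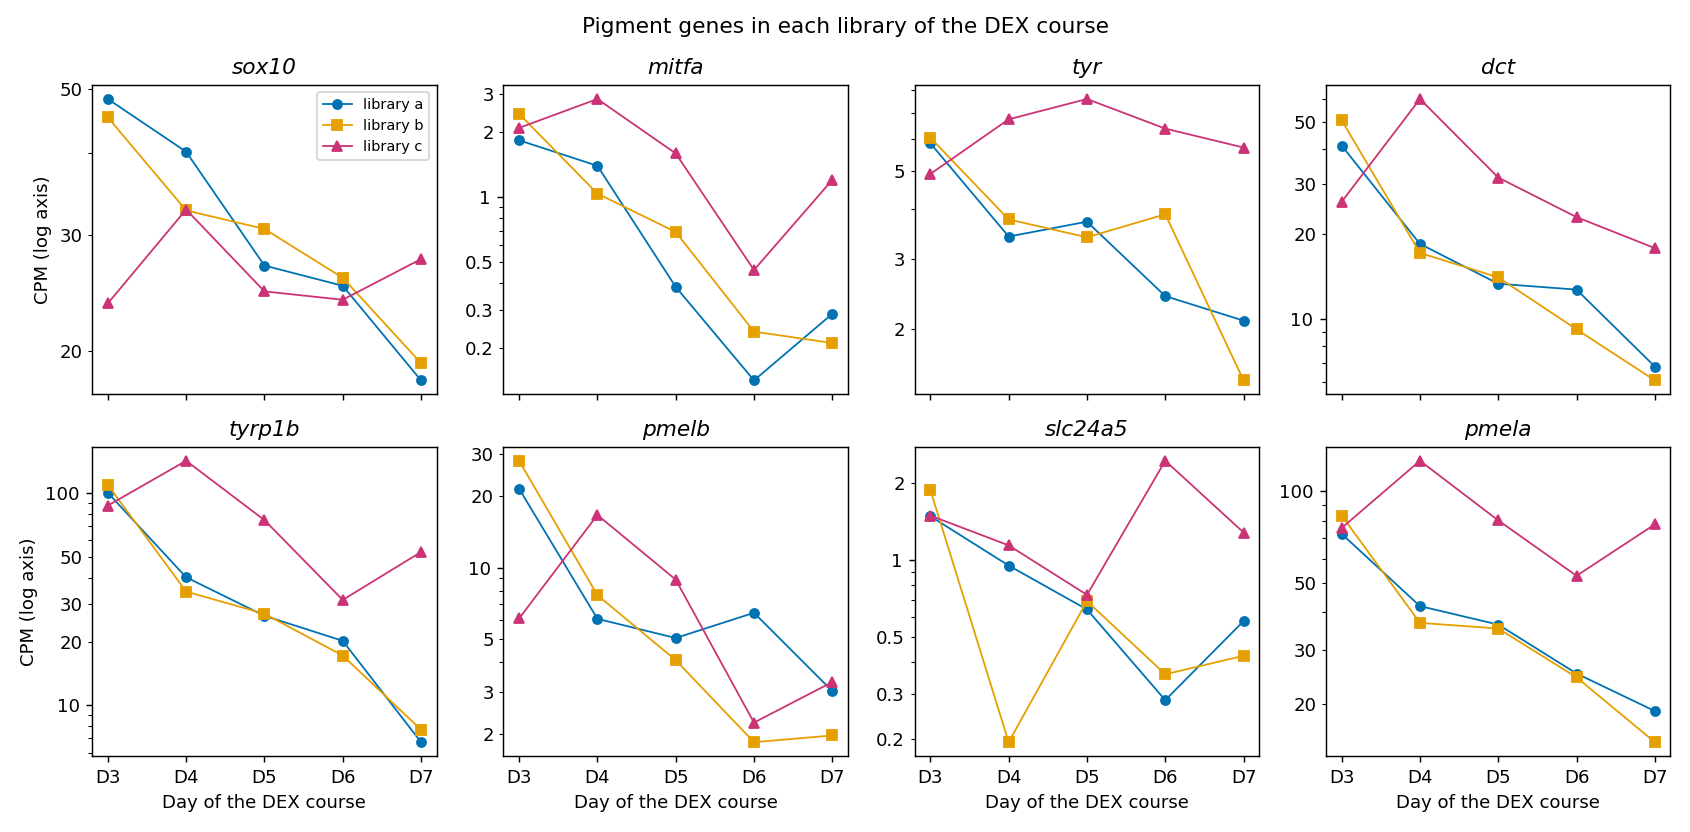
CPM (log axis) of the 7 genes and of pmela in each library of the DEX course, by day, with a line for each letter. On D4 to D7 the c library lay above a and b in mitfa, tyr, dct, tyrp1b, slc24a5 and pmela, while the a and b libraries had their highest values on D3 in all 8 panels.

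Among the regulators, sox10, the neural crest transcription factor upstream of mitfa, had 48.3, 45.3 and 23.6 CPM on D3 in libraries a, b and c. It had 40.2, 32.7 and 32.8 CPM on D4, 27.0, 30.7 and 24.6 CPM on D5, 25.1, 25.8 and 23.9 CPM on D6, and 18.0, 19.2 and 27.6 CPM on D7. The a and b libraries were lowest on D7, whereas the c library had its lowest value on D3, so D7 and D3 overlapped. The fit gave a log2 fold change of −0.86 ± 0.25 (SE, adjusted p = 0.0238). Myelin genes also set the D3 c library apart: mbpa, which encodes a myelin protein of sox10-expressing glia, had 83.2 CPM there, against 24.4 and 22.5 CPM in D3 a and b. The part of glia in the sox10 difference was not tested.

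The melanophore regulator mitfa was scarce, with 31, 39 and 38 reads on D3 and 4, 3 and 16 reads on D7. Its level was 1.83, 2.43 and 2.09 CPM on D3, 1.40, 1.04 and 2.85 CPM on D4, 0.385, 0.691 and 1.59 CPM on D5, 0.142, 0.239 and 0.460 CPM on D6, and 0.289, 0.211 and 1.20 CPM on D7. Every D7 library lay below every D3 library. The log2 fold change of −1.90 ± 0.68 (SE) did not pass the test (adjusted p = 0.0545), and with the letter as a block it did (−2.14 ± 0.47, adjusted p = 0.00313).

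Of the melanin enzymes, tyr, which encodes the rate-limiting tyrosinase, had the smallest log2 fold change. It had 5.86, 6.05 and 4.90 CPM on D3, 3.41, 3.77 and 6.73 CPM on D4, 3.72, 3.40 and 7.57 CPM on D5, 2.41, 3.88 and 6.38 CPM on D6, and 2.09, 1.48 and 5.72 CPM on D7. In the a and b libraries D7 was 0.357 and 0.245 times D3, whereas in the c library it was 1.17 times D3. Without the block tyr did not pass (−0.86 ± 0.51, adjusted p = 0.244), and with it tyr fell (−1.08 ± 0.35, adjusted p = 0.028).

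Dopachrome tautomerase, encoded by dct, converts an intermediate of eumelanin synthesis. The gene had 41.1, 50.6 and 26 CPM on D3, 18.4, 17.1 and 60.1 CPM on D4, 13.3, 14.0 and 31.7 CPM on D5, 12.7, 9.19 and 22.9 CPM on D6, and 6.79, 6.06 and 17.8 CPM on D7. D7 lay below D3 in every library, and the c library peaked on D4. The fall was −1.94 ± 0.58 on the log2 scale (adjusted p = 0.026).

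The related enzyme gene tyrp1b had, on D7, the widest gap between the c library and the others among the 7 genes. It had 100.5, 109.5 and 87.5 CPM on D3, 40.2, 34.4 and 142.3 CPM on D4, 26.5, 27.1 and 74.7 CPM on D5, 20.2, 17.2 and 31.4 CPM on D6, and 6.71, 7.68 and 52.9 CPM on D7. The a and b libraries lay close together on each day and ended at 0.0668 and 0.0702 times their D3 level, while the c library ended at 0.604 times its own. The log2 fold change without the block was −2.15 ± 0.76 (adjusted p = 0.0517), and with it tyrp1b fell (−2.82 ± 0.49, adjusted p = 0.000627).

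The melanosome matrix gene pmelb had the largest fall of the 7 without the block. It had 21.4, 28.1 and 6.12 CPM on D3, 6.09, 7.66 and 16.6 CPM on D4, 5.06, 4.09 and 8.90 CPM on D5, 6.46, 1.85 and 2.24 CPM on D6, and 3.03, 1.97 and 3.31 CPM on D7. Every D7 library lay below every D3 library although the D3 c library was far below a and b. The log2 fold change was −2.74 ± 0.62 (adjusted p = 0.00594), and pmelb was called in all 13 alternatives of this comparison.

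Its paralogue pmela, which encodes the same kind of fibril protein, behaved differently in the c libraries. It had 18.9, 14.9 and 77.8 CPM on D7, against 72.4, 83.1 and 75.6 CPM on D3. The c library of D7 thus overlapped D3, and the difference did not pass the test (log2 fold change −1.05 ± 0.62, adjusted p = 0.241). Without the D7 c library pmela was called lower (−2.13, adjusted p = 0.0124), as it was with the letter as a block (−1.49, adjusted p = 0.0042) and with the a and b libraries alone (−2.15, adjusted p = 1.31e-07). The other 10 alternatives gave no call.

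The exchanger gene slc24a5, known from the golden zebrafish, was low, with 3 to 37 reads per library. It had 1.48, 1.87 and 1.49 CPM on D3, 0.950, 0.195 and 1.14 CPM on D4, 0.641, 0.691 and 0.731 CPM on D5, 0.284, 0.358 and 2.43 CPM on D6, and 0.578, 0.423 and 1.28 CPM on D7. D7 lay below D3 in all libraries, yet the test was not passed without the block (−1.08 ± 0.75, adjusted p = 0.321) or with it (−1.26 ± 0.61, adjusted p = 0.12).

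**Figure D2:**
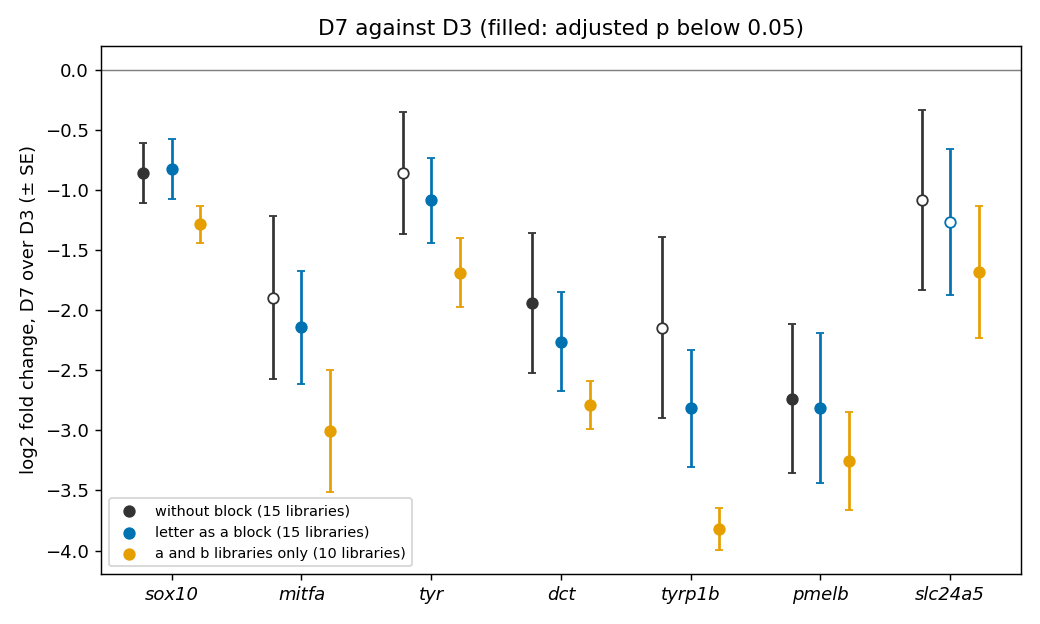
Log2 fold change (± SE) of D7 over D3 for the 7 genes without a block, with the letter as a block, and with the a and b libraries only; filled points have an adjusted p below 0.05. All values lie below 0, and the number of filled points is 3, 6 and 7. The subset of a and b libraries was chosen after seeing the data.

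The number of genes that passed depended on which libraries were in the fit. In 5 of the 7 genes, mitfa, tyr, dct, tyrp1b and slc24a5, the c library lay above both a and b on each of D4 to D7, as it did in 19.2% of all genes. On D7 the c library was 7.34 times the mean of a and b for tyrp1b, 4.81 times for mitfa and 1.32 times for pmelb. It was above that mean in all 7 genes on D7. On D3 it was below that mean in all 7, from 0.247 times (pmelb) to 0.981 times (mitfa). The block takes the difference between letters as the same on every day, so it does not describe this reversal. The share of all genes in which the c library turned in this way is not given here. With the a and b libraries alone all 7 genes fell, with log2 fold changes between −1.28 (sox10) and −3.82 (tyrp1b). In that fit 51% of all genes were called, and 5124 of 21643 were called lower. That subset was chosen after seeing the data. Without the D7 c library 6 were called, and without D3 c sox10, dct and pmelb were. Without D3 a, D3 b, D7 a or D7 b only pmelb was. The share of all genes called in these refits is not given here.

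Between successive days none of the 7 genes passed edgeR's test, where 0.189% of all genes were called on D4 against D3 and 0.0092%, 0% and 0% in the later steps. At an unadjusted p below 0.05 only mitfa was lower, on D6 against D5, where 6.04% of all genes passed that limit and 4.17% to 7.41% did over the 4 steps. DESeq2 also called none. With the letter as a block none passed either, where 0.611%, 0.28%, 0.193% and 0.0092% of all genes were called in the 4 steps. With the a and b libraries alone, dct (−1.31), tyrp1b (−1.44) and pmelb (−1.79) were lower on D4 than on D3, where 20.2% of genes were called, and tyrp1b was lower on D7 than on D6 (−1.37), where 2.21% were. The steps between, with 3.52% and 3.08% of genes called, held none of the 7. Set against the mean of the other days, pmelb was higher on D3 (1.72 ± 0.51, adjusted p = 0.0499), where 7.89% of genes were called and 4.4% were higher. No other gene and day passed that comparison, with 0.0598% of genes called on D7 and 0% on D4, D5 and D6.

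Among the 7 genes, dct and tyrp1b had the most alike courses over the 15 libraries, with a root mean square difference of 0.446 between their mean-centred log2 CPM. The pair tyr and dct came next at 0.517. Over 17269 candidate genes, pmela was among the 3 most like dct (0.323), after the splicing factor gene SF3B4 (0.314). The most like gene was ITGA8 for sox10 (0.184), si:dkey-251i10.2 for mitfa (0.341), ARHGDIA for tyr (0.237), MYL1 for tyrp1b (0.364), mycla for pmelb (0.434) and NFATC1 for slc24a5 (0.417).

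**Figure D3:**
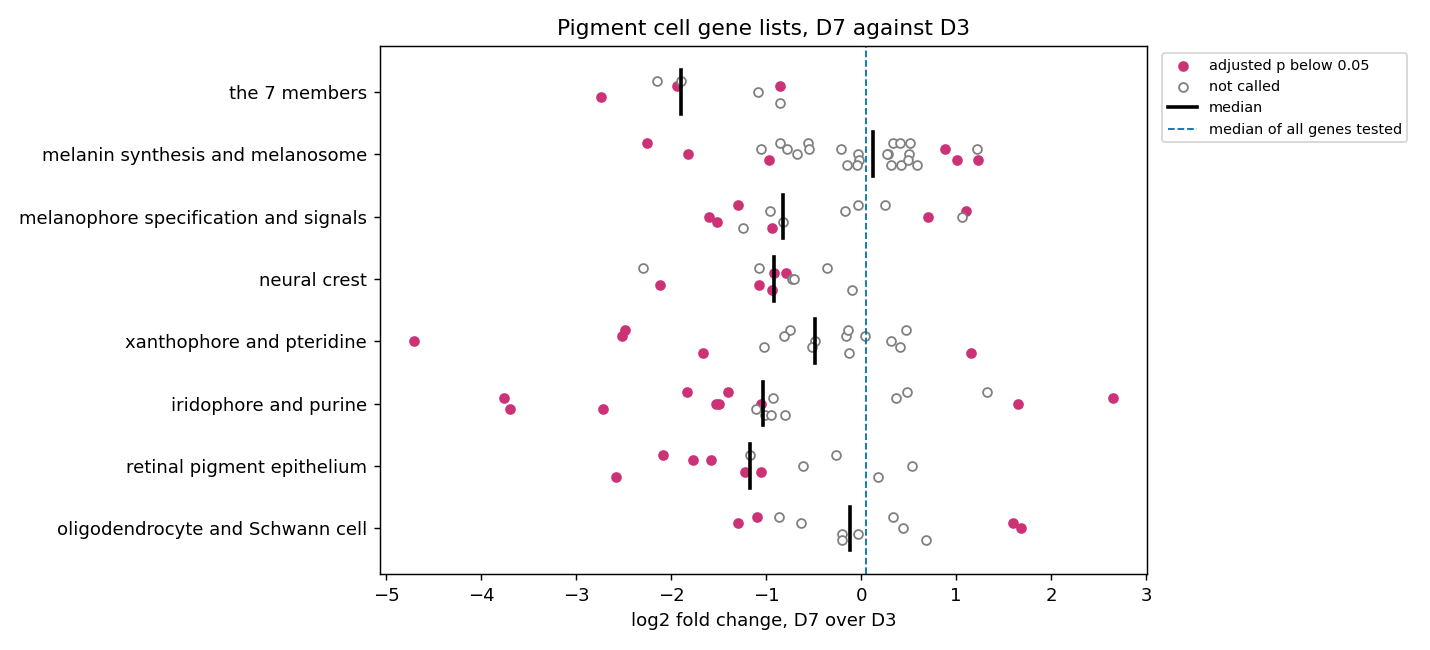
Log2 fold change of D7 over D3 for each gene of the pigment cell lists, with called genes filled, the median of each list as a black bar and the median of all genes tested as a dashed line. The median of the 7 genes is −1.90. That of the other melanin and melanosome genes, a list that also holds trafficking genes of other cell types, is 0.13.

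Of 28 other melanin synthesis and melanosome genes, 3 rose and 3 fell, with a median log2 fold change of 0.13. That list also holds trafficking genes that serve other cell types too, among them VPS11, VPS18, AP3D1 and HPS1. Among all genes tested, 11.8% rose and 13.5% fell. The second TYRP1 row (ENSDARG00000029204), tyrp1a by elimination, fell by 2.25 on the log2 scale (adjusted p = 0.00207). The gene mlphb, of the melanophilin family that links melanosomes to myosin, fell by 1.82 (adjusted p = 0.000121). Its paralogue in the MLPH row had 9.59 to 33.1 CPM on D7, against 9.60 to 16.7 CPM on D3, so the days overlapped. BLOC1S6, part of a complex that builds lysosome-related organelles, rose by 1.23 (adjusted p = 0.00142), and the copper pump gene ATP7A rose by 0.88 (adjusted p = 0.0091). The melanosomal transporter genes SLC45A2 (0.34, adjusted p = 0.713) and OCA2 (−0.56, adjusted p = 0.53) did not pass. SLC45A2 turned to −0.72 with the a and b libraries alone.

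Of 13 genes of melanophore specification and its signals, 2 rose and 4 fell, where 11.8% of all genes rose and 13.5% fell. HDAC1, a histone deacetylase gene, fell by 1.51 (adjusted p = 8.96e-05), TFAP2B fell by 1.60 (adjusted p = 0.00112), and TFAP2E, which like TFAP2B encodes an AP-2 factor, fell by 1.30 (adjusted p = 0.0141). TFEB, a relative of mitfa that drives lysosomal genes, rose by 1.11 (adjusted p = 0.00684). KIT, the receptor gene kita, did not pass (1.06 ± 0.65, adjusted p = 0.263). Of 11 neural crest genes 5 fell and 0 rose, among them snai1b (−2.11, adjusted p = 0.000237), SOX9 ENSDARG00000003293 (−0.92, adjusted p = 0.0117), TFAP2A (−0.94, adjusted p = 0.0196) and TFAP2C (−0.79, adjusted p = 0.0306). TFAP2A was on both the melanophore specification and the neural crest list and is counted in each. With the letter as a block, 9 of the 11 neural crest genes and 6 of the 13 melanophore specification genes fell. There 36.5% of all genes were called, and 4106 of 21750 were called lower.

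Genes of the yellow and the silvery pigment cells were also among those that fell. Of 17 xanthophore and pteridine genes, 1 rose and 4 fell, where 11.8% of all genes rose and 13.5% fell. The pteridine synthesis gene gch2 had 1.80, 2.61 and 14.6 CPM on D7, against 161.8, 180.3 and 152.0 CPM on D3. This was a log2 fold change of −4.70 ± 0.66 (adjusted p = 0.000282). The transporter genes slc2a11b (−2.52, adjusted p = 0.00592) and slc2a15b (−1.66, adjusted p = 0.000546) and the oxidase gene aox5 (−2.49, adjusted p = 0.0194) also fell, while the receptor gene csf1ra did not pass (0.47, adjusted p = 0.513).

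Of 18 iridophore and purine genes, 2 rose and 8 fell, where 11.8% of all genes rose and 13.5% fell. The purine enzyme gene pnp4a, a marker of iridophores, had 2.31, 1.41 and 5.26 CPM on D7, against 46.9, 45.5 and 29.2 CPM on D3 (log2 fold change −3.76 ± 0.46, adjusted p = 0.000111). Also lower were the purine synthesis genes PAICS (−3.70, adjusted p = 0.000186), ATIC (−2.71, adjusted p = 0.000135) and PFAS (−1.83, adjusted p = 0.000512), and these also serve dividing cells of any type. With the letter as a block 11 of the 18 fell, where 36.5% of all genes were called and 4106 of 21750 were called lower. The receptor gene ltk did not pass (0.48, adjusted p = 0.501). Unlike pnp4a, pnp4b of the same list was higher on D7, with 78.1 to 201.5 CPM, against 8.23 to 54.5 CPM on D3.

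Markers of other cells that could hold these transcripts were set beside them, where 11.8% of all genes rose and 13.5% fell. Of 11 retinal pigment epithelium genes 6 fell and 0 rose, among them OTX2 (−1.77, adjusted p = 0.000858), STRA6 (−1.58, adjusted p = 0.00397), LRAT (−2.58, adjusted p = 0.0046) and rdh5 (−2.09, adjusted p = 0.0255). The summed level of that list ranged from 96.7 to 106.9 CPM on D7, against 165.4 to 262.4 CPM on D3. Of the RPE65 rows, ENSDARG00000094752 (−1.79, adjusted p = 0.00261) and ENSDARG00000054420 (−1.14, adjusted p = 0.0294) fell, and ENSDARG00000007480 did not pass (−1.39, adjusted p = 0.0706). Of 12 oligodendrocyte and Schwann cell genes 2 rose and 2 fell, among them mbpa, which rose (1.69, adjusted p = 0.0131), and pou3f1, a transcription factor gene of Schwann cells, which fell (−1.09, adjusted p = 0.0291). The other 8 glial genes were not called, and the list had a median log2 fold change of −0.12. The summed level of the glial list was 359.0 to 428.7 CPM on D7, against 234.6 to 385.9 CPM on D3, so the days overlapped. The part of these cells in the differences of the 7 genes was not tested. Of the list genes named, TFAP2E, aox5, TFAP2A, TFAP2C, rdh5, mbpa, pou3f1 and RPE65 ENSDARG00000054420 lost their call when 1 or more of the D7 and D3 libraries was left out in turn.

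Between cdkn1a crispants and WT larvae none of the 7 genes passed edgeR's test over all 10 libraries, where 0.168% of all genes were called. At an unadjusted p below 0.05 only mitfa differed, where 11.8% of all genes did, and DESeq2 also called none. Within the first set tyr was lower in crispants, where 22.5% of all genes were called and 13.9% were lower. Within the second set none passed, where 4.78% were.

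**Figure D4:**
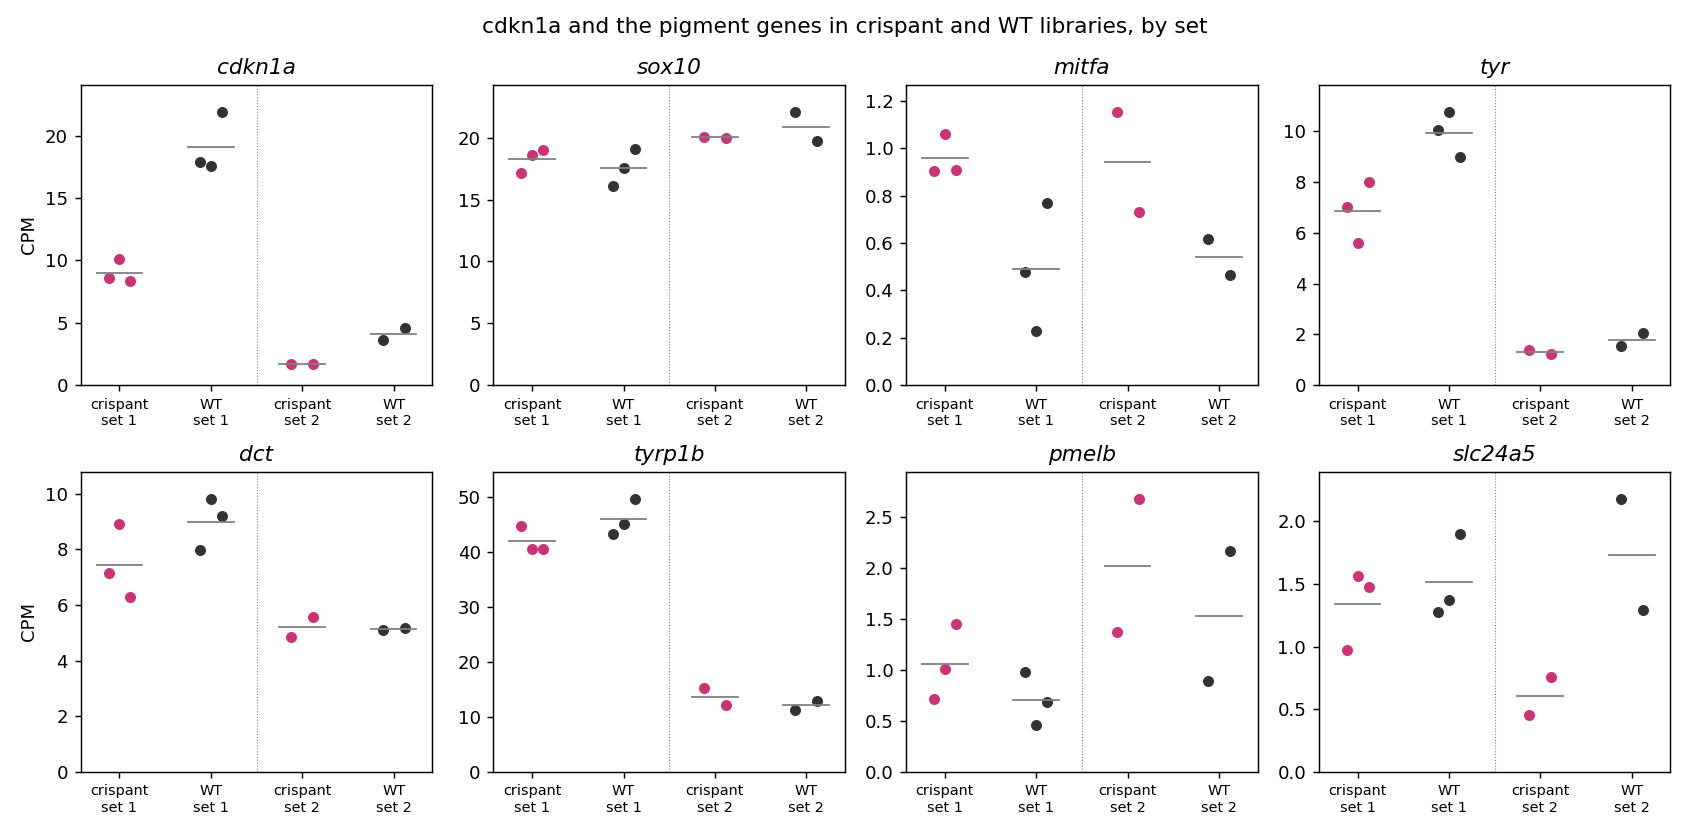
CPM of cdkn1a and the 7 genes in crispant and WT libraries of the first and the second set, with a bar at each mean. In tyr the crispant libraries lie below the WT libraries of their own set, and both groups are higher in the first set.

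Of the 7 genes, tyr had 7.03, 5.59 and 8.0 CPM in first-set crispants, against 10.1, 10.8 and 8.98 CPM in first-set WT libraries. In the second set it had 1.37 and 1.24 CPM in crispants, against 1.53 and 2.06 CPM in WT libraries. Crispants lay below the WT libraries within both sets, as they did in 5.56% of all genes. The log2 fold change was −0.53 ± 0.18 in the first set (adjusted p = 0.0294) and −0.46 ± 0.26 in the second (adjusted p = 0.459). With the set as a term, where 5.18% of all genes were called, it was −0.51 ± 0.14 (adjusted p = 0.0551). The effect did not differ detectably between sets (difference −0.07 ± 0.32, adjusted p = 0.916), a test that 15% of all genes passed.

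The regulator mitfa had 0.907, 1.06 and 0.908 CPM in first-set crispants and 1.15 and 0.732 CPM in second-set crispants. WT libraries had 0.478, 0.228 and 0.771 CPM in the first set and 0.619 and 0.47 CPM in the second. Crispants lay above the WT libraries of their own set in both, as they did in 3.91% of all genes, on 9 to 43 reads per library. The log2 fold change of 0.90 ± 0.33 over 10 libraries did not pass (adjusted p = 0.318).

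The other 5 genes gave no call in either set. The exchanger gene slc24a5 had 0.456 and 0.758 CPM in second-set crispants, against 2.18 and 1.29 CPM in second-set WT libraries (−1.51 ± 0.48, adjusted p = 0.0814). In the first set slc24a5 had 0.971, 1.57 and 1.48 CPM in crispants, against 1.27, 1.37 and 1.90 CPM in WT libraries, and there the groups overlapped. Over all 10 libraries sox10 averaged 19.0 ± 1.2 CPM in crispants and 18.9 ± 2.3 CPM in WT libraries (SD, n = 5 each). The log2 fold changes of dct (−0.19 ± 0.23), tyrp1b (−0.08 ± 0.48) and pmelb (0.48 ± 0.45) did not pass either (adjusted p = 0.83, 0.968 and 0.752).

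For the melanin enzymes the sets lay far apart. In WT libraries the first set was 5.54 times the second for tyr, 3.79 times for tyrp1b and 1.75 times for dct, and in crispants 5.28, 3.06 and 1.43 times. These 3 genes were higher in every first-set library, as were 12.8% of all genes, and sox10 was lower in every one, as were 14.3%. Since the sets were partly read from the libraries' own values, this difference was not tested. No gene of the 7 lists of pigment and neighbouring cell types was called between crispants and WT larvae over all 10 libraries, a model without the sets in which cdkn1a did not pass either. Of the genes named whatever their test, over all 10 libraries log2 fold changes ranged from −0.79 (RPE65 ENSDARG00000007480) to 0.22 (pmela).

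Within the first set, where 13.9% of all genes were lower in crispants and 8.57% higher, genes of the pigment lists did pass. Of 17 xanthophore and pteridine genes 8 fell and 1 rose, among them gch2 (−0.47, adjusted p = 0.00467) and csf1ra (−0.60, adjusted p = 0.00313). Of 18 iridophore and purine genes 5 fell and 0 rose, among them pnp4a (−0.54, adjusted p = 0.0102). The melanophore specification list had 3 of 14 genes lower and 0 higher, and the melanin and melanosome list had 5 of 28 higher and 2 lower. Within the second set 1 xanthophore gene rose and 1 fell, and the other 3 of these lists held no call.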

How the data were processed

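Per the submitters' processing notes, Trim Galore, STAR (2.7.8, GRCz11) and HTSeq (0.13.5) were used for trimming, alignment and counting. The authors deposited raw counts per gene, 1 table per experiment. The annotation release and the strand setting are not given in the sources used here, so overlapping genes and near-identical copies are uncertain. Gene names came from a reference table that names 29201 of the 32520 identifiers. The members and lists were chosen with earlier results of these data known.

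The counts were scaled by TMM and filtered by filterByExpr (leaving 21750 and 23222 genes) in edgeR (4.0.16, R 4.3.3). Quasi-likelihood p-values were adjusted over all genes by Benjamini-Hochberg at 0.05, and crispant calls also needed a log2 fold change beyond 0.3 in size, as in the study. CPM are TMM-scaled. Days were compared in a five-group model of 15 libraries, and each day with the other 4 in a two-class fit. SE is the log2 fold change over the root of the F statistic. Column letters were taken for replicate numbers, in alphabetical order. Same-letter correlations of deviations from the day means were 0.269 or more between D7 and D3 and 0.273 or more between successive days, so the letters were taken as pairs. The lowest among all 30 pairs was 0.0725. Crispant columns whose header names repeat carry no number. The sets were read from the repeated header names and the first principal component. Libraries are not stated to be separate clutches, so p-values measure the spread between libraries, which may be technical. No pair of libraries agreed within sampling noise.

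Alternatives were DESeq2 (1.42.0), RLE scaling, no filter, at least 10 counts, the block, subsets of libraries and leaving out each library. The tests were tested on simulated data. From each list, up to 4 called genes with the smallest p were named, plus 10 pigment genes named whatever their test. Some genes that this rule would name are not reported here.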

Additional observations from a re-analysis of the deposited data

Results flagged for a closer look

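The crispant effect differed between the first and the second set of libraries, by edgeR's test of the difference itself, for 3 of the pigment genes named whatever their test, where 15% of all genes tested did so. Over the whole lists it differed for 6 of 18 iridophore, 3 of 17 xanthophore, 3 of 28 melanin and melanosome and 1 of 14 melanophore specification genes, these 3 included. For gch2 the first effect minus the second was −1.05 on the log2 scale (adjusted p = 0.00319), from −0.47 (first) and 0.57 (second). For pnp4a it was −0.85 (adjusted p = 0.0217), with −0.54 and 0.31. For SLC45A2 it was 0.64 (adjusted p = 0.0407), with 0.24 and −0.40. None of the 7 pigment genes passed this test, with adjusted p from 0.154 to 0.916.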

How the results depend on the processing

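For D7 against D3, 3 of the 7 genes and 25.3% of all genes tested were called. The replicate block gave 6 (36.5% of all genes), DESeq2 gave 5 and the a and b libraries alone gave 7 (51%). Leaving out each library in turn gave 1 to 6. RLE scaling gave 3, no filter 4, and D7 and D3 libraries alone 2. At least 10 counts in every library gave 4, with mitfa and slc24a5 not tested there. All 7 kept a negative log2 fold change under every alternative run. For each day against the other 4, where 1 gene was called, no filter gave 0, the replicate block 3 and the five-group model 2. Between successive days, where 0 were called, the a and b libraries alone gave 3, an alternative chosen after seeing the data, and the replicate block gave 0. With a and b alone, 2.21% to 20.2% of all genes were called in these steps. Between crispants and WT larvae, where 0 were called, the first set alone gave 1. For alternatives without a share beside them, the share of all genes called is not given in this section. No paired analysis was possible for the crispants because 4 of their columns carry no number of their own. In the crispant comparison some signs turned, among them those of gch2 (−0.42 over all 10 libraries), csf1ra (−0.33) and pnp4a (−0.33). The second set alone gave −0.056 for sox10, 0.026 for dct, 0.18 for tyrp1b, 0.10 for the second TYRP1 row, −0.40 for SLC45A2, 0.036 for csf1ra, 0.58 for gch2, 0.31 for pnp4a and −0.046 for pmela. The set as a term gave −0.008 for SLC45A2. Leaving out each library gave −0.047 to 0.068 for sox10, −0.30 to 0.12 for tyrp1b, −0.27 to 0.075 for the second TYRP1 row and −0.13 to 0.22 for SLC45A2. On D7 against D3 SLC45A2 turned to −0.048 with the replicate block and −0.72 with a and b alone, and ranged from −0.62 to 0.72 when 1 library was left out. The cause of these changes was not tested. Of the results for single list genes on D7 against D3, 427 kept their side of the threshold, 39 lost their call and 10 gained one. Low counts limit mitfa and slc24a5.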
